A study of Mus with 8 samples.

Results

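Lin-Kit+ cells (LK) are a sorted mixture of blood progenitors that lack the markers of mature blood cells and carry the stem cell factor receptor Kit. LK cells of mice 14 days old (P14) were set against LK cells of newborn mice (P0), all Ifnar+/-, that is, carrying 1 mutated copy of a gene for the type I interferon receptor. Since the label Ifnar carries no number, both receptor genes, Ifnar1 and Ifnar2, were read. RNA and 10 antibody tags (CITE-seq) had been counted in single cells, with 1 library at each age. A barcode was taken as a cell when it held at least 7500 gene UMI (unique molecular identifiers, 1 per captured RNA molecule) and at most 10% mitochondrial UMI. This gave 2411 cells at P14 and 5891 at P0, which is 8302 of the 35549 cells that the same rule found in the 8 libraries of the series. All 32285 genes and the 10 tags were described. The other libraries were LK cells of Ifnar-/- mice and Lin-Sca1+Kit+ cells (LSK, richer in stem cells) of both genotypes, at both ages. No treatment was labelled. The labels name neither the organ nor the number of animals behind a library, so age, organ and litter cannot be told apart. By genes of the sex chromosomes, 63.7% of the cells of determined sex were male at P14 and 26.05% at P0, and each library held cells of both sexes. With 1 library an age, no value has a replicate error and no test was made. A difference of 2-fold is used as a size only, and intervals cover counting error only.

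Blood formation moves from the liver to the bone marrow around birth, and progenitors lose a fetal program over the same weeks. That program includes the RNA-binding proteins Lin28b and Igf2bp1 to Igf2bp3, which keep growth genes active in fetal cells. Type I interferons bind a receptor made of Ifnar1 and Ifnar2, and the receptor drives transcription of interferon-stimulated genes such as Isg15 through transcription factors that include Stat2 and Irf9. Lymphoid priming is the step in which progenitors begin to express genes such as Flt3 and Il7r, and the DNA polymerase gene Dntt is active in early lymphoid cells of the adult.

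The cells held 100486590 gene UMI at P14 and 302507736 at P0, with medians of 38090 and 46231 UMI and of 5993 and 6270 genes a cell. The median mitochondrial share was 3.60% at P14 and 3.84% at P0. Barcodes called as cells held 79.0% of the gene UMI at P14 and 91.4% at P0, and 2 cell barcodes occurred in both libraries. The sort was checked against defining genes. Levels are given as CPM, the UMI of a gene per 1000000 gene UMI of the library. Kit was at 195 CPM at P14 and 146 CPM at P0, and the median CD117 (Kit) tag count was 953 and 722. Among genes of mature cells, the neutrophil gene Ly6g had 0.00995 and 0 CPM, the B cell gene Ms4a1 had 0.00995 and 0 CPM, and the late erythroid gene Slc4a1 had 0 and 0.0595 CPM. Other genes of late myeloid cells were present, such as S100a8 at 35.4 and 323 CPM and the mast cell protease Cma1 at 0.0597 and 17.0 CPM. The low genes therefore do not show that mature cells were absent. UMI were summed over the cells of a library, so that fewer cells of a type and less RNA per cell cannot be told apart in these sums. A log2 ratio is P14 over P0 throughout, after adding 0.5 UMI to each sum.

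Of 14010 genes with at least 50 UMI in the higher library, 784 were at least 2-fold higher at P14 (5.6%) and 518 at least 2-fold lower (3.7%). The lower side held the larger ratios. At 8-fold or more there were 13 higher and 96 lower genes, and at 16-fold or more 6 higher and 56 lower genes. The minimum of 50 UMI is a lower CPM in the P0 library, which held more UMI. Weakly expressed genes could therefore enter more easily on the lower side, and the part of this in these counts was not tested. The share of genes at least 2-fold apart was 20.8% below 5 CPM and 2.52% between 20 and 100 CPM. The median log2 ratio of all 14010 genes was 0.13, and list medians below are read beside that value and list counts beside the shares of 5.6% and 3.7%.

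**Figure D1:**
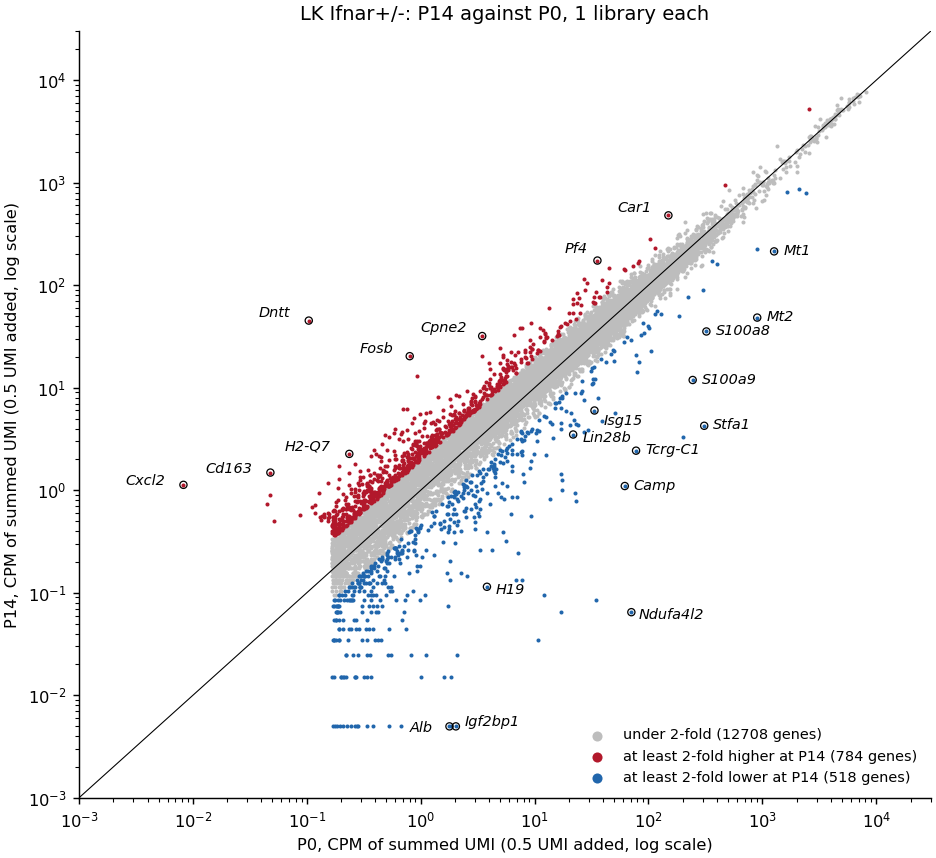
Summed CPM of each gene at P0 (x axis) and at P14 (y axis), both on log scales with 0.5 UMI added, for the 14010 genes that passed the minimum. Colored points are the 784 genes at least 2-fold higher and the 518 at least 2-fold lower at P14, and the points farthest from the diagonal lie on the lower side. The minimum, in UMI of the higher library, is a lower CPM at P0 than at P14.

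Several genes of the fetal program and several imprinted genes were lower at P14. Lin28b, which blocks maturation of let-7 microRNAs, was at 3.49 CPM at P14 and 21.8 CPM at P0, a log2 ratio of -2.64. Igf2bp1, an RNA-binding protein of fetal cells, had 0 UMI at P14 and 616 at P0, so it was at least 68.2-fold lower against a floor of 3 UMI. Igf2bp2 was at 6.41 and 17.2 CPM. In the library sums the relatives did not move alike: Igf2bp3 was at 48.1 and 69.7 CPM and Hmga2, a chromatin protein of fetal stem cells, at 102 and 114 CPM, both under 2-fold. Lin28a and Mycn had log2 ratios of 0.64 and 0.67. In all, 9 of the 10 genes of the fetal list passed the minimum, 3 were at least 2-fold lower, none was at least 2-fold higher, and the median log2 ratio was -0.53.

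Lin28b (ENSMUSG00000063804, chromosome 10, 45376617 to 45486314, GRCm38.p6) was lower in each of the 5 cell classes described below, with log2 ratios from -3.48 to -1.56. After every cell had been thinned to 7500 UMI, 2.94% of cells at P14 and 14.9% at P0 held a Lin28b UMI. The other P14 and P0 pairs gave 3.50 and 21.4 CPM (LK Ifnar-/-) and 7.28 and 22.95 CPM (LSK Ifnar+/-). The level at P0 lay between 21.4 and 22.95 CPM in these pairs, and the level at P14 was higher in LSK than in LK cells. Igf2bp1 (chromosome 11, 95957163 to 96005944) was seen in 0% of thinned P14 cells and 2.12% of P0 cells. Within the classes the fetal list median lay between -2.58 (monocyte progenitor-like) and -0.42 (erythroid-like). Hmga2 was seen in 69.6% and 86.5% of thinned lymphoid-primed-like cells at P14 and P0, and in 27.1% and 72.5% of monocyte progenitor-like cells. In erythroid-like cells these shares were 18.1% and 17.8%. The share with Igf2bp3 was lower at P14 in all 5 classes, such as 37.6% and 53.8% of lymphoid-primed-like cells.

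Of 18 imprinted genes, 8 were at least 2-fold lower, none at least 2-fold higher, and the median log2 ratio was -0.68. The noncoding RNA H19 had 11 UMI at P14 and 1155 at P0. Dlk1, a Notch-like ligand, was at 0.995 and 17.3 CPM, and Meg3, the noncoding RNA of the same imprinted cluster, at 0.826 and 5.37 CPM. Peg3 had a log2 ratio of -2.31, Igf2r, the receptor that clears Igf2, of -1.08, and Cdkn1c, a cell cycle inhibitor, of -1.16. Gnas, Impact and Phlda2 were within 0.06 of 0. At P0, in classes set by marker genes as described below (HSC/MPP-like stands for stem cells and multipotent progenitors), Dlk1 was at 60.03 CPM in the HSC/MPP-like, 45.8 in the lymphoid-primed-like and 5.003 in the erythroid-like cells. At P14 it was at 2.48, 1.04 and 0.499 CPM in these classes.

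The interferon-response list was lower at P14 as a group. Of its 55 genes, 52 passed the minimum, 24 were at least 2-fold lower, none was at least 2-fold higher and the median log2 ratio was -0.84. The summed level of the list was 1188 CPM at P14 and 2034 CPM at P0. Isg15, a ubiquitin-like protein (ENSMUSG00000035692, chromosome 4, 156199424 to 156200818), was at 5.99 and 33.6 CPM. Rsad2, the antiviral enzyme viperin, was at 2.22 and 12.5 CPM, and Ifit3 at 0.159 and 0.926 CPM. Irf7, a transcription factor of the response, was at 4.39 and 23.1 CPM, and Usp18, which removes Isg15 from proteins, at 1.65 and 9.04 CPM. The membrane proteins Ifitm3 and Ifitm1 were at 160 and 172 CPM at P14 and at 397 and 360 CPM at P0.

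The list did not move as a block. Some members showed little difference or the opposite order. The guanylate-binding proteins Gbp2 and Gbp3 had log2 ratios of 0.91 and 0.68, Sp100 of 0.58, Stat2 of 0.50 and Ifit2 of 0.45. Dtx3l, Parp14 and Gbp7 were within 0.10 of 0. The receptor and signalling genes also stood apart from the targets. Ifnar1 was at 23.5 CPM at P14 and 15.8 CPM at P0, and Ifnar2 at 72.5 and 64.9 CPM. Irf9 had a log2 ratio of -0.41. Of the 16 genes of the signalling list, Irf1, a transcription factor that interferons and other cytokines induce, was at least 2-fold higher (19.2 and 7.66 CPM). Socs1, an inhibitor of the signal, was at least 2-fold lower (3.57 and 10.4 CPM). The median of that list was 0.17.

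The interferon difference was unequal across cell classes. In cells thinned to 7500 UMI, the median number of UMI of the list was 8 at P14 and 14 at P0. In HSC/MPP-like cells it was 18 and 51, in lymphoid-primed-like cells 10 and 32, and in monocyte progenitor-like cells 6 and 23. In neutrophil progenitor-like cells it was 5 and 10, and in erythroid-like cells 6 and 7. Over the genes of the list, the median log2 ratio was -1.79 in lymphoid-primed-like, -1.70 in monocyte progenitor-like, -1.29 in HSC/MPP-like, -0.9999 in neutrophil progenitor-like and -0.37 in erythroid-like cells. Free RNA, read from barcodes of at most 100 UMI, held Isg15 at 6.17 CPM at P14 and 31.99 CPM at P0, and its part in the classes with low levels was not tested. Rsad2 shows the same layout by gene. It was at 6.78 CPM at P14 and 116 CPM at P0 in HSC/MPP-like cells, and at 1.91 and 4.34 CPM in erythroid-like cells. Rtp4, a chaperone of membrane receptors (chromosome 16, 23520219 to 23614222), was at 30.3 and 131 CPM in HSC/MPP-like cells and at 0.907 and 20.2 CPM in neutrophil progenitor-like cells. Ccl4, a chemokine that is not in the list, was at 19.1 and 223 CPM in HSC/MPP-like cells and at 7.01 and 178 CPM in lymphoid-primed-like cells.

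In the LK cells of Ifnar-/- mice, which share no library with this pair, the list lay elsewhere. Isg15 was at 1.16 CPM at P14 and 0.479 CPM at P0, Irf7 at 0.820 and 0.306 CPM, and Rtp4 at 0.453 and 0.180 CPM. The list median was 0.67 there and -1.05 in LSK Ifnar+/- cells. Members had to pass the minimum only in the LK Ifnar+/- pair. A gene with equal UMI at both ages, 0 included, takes a ratio above 0 in the Ifnar-/- pair. The cells there held 150009925 UMI at P14 and 238229661 at P0. The median of 0.67 is therefore not read as a higher level at P14. Whether the pairs differ was not tested, since each age and genotype had 1 library. Gbp2 and Irf1 were higher at P14 in the Ifnar-/- pair too, at 4.27 against 1.52 CPM and at 15.3 against 6.10 CPM.

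**Figure D2:**
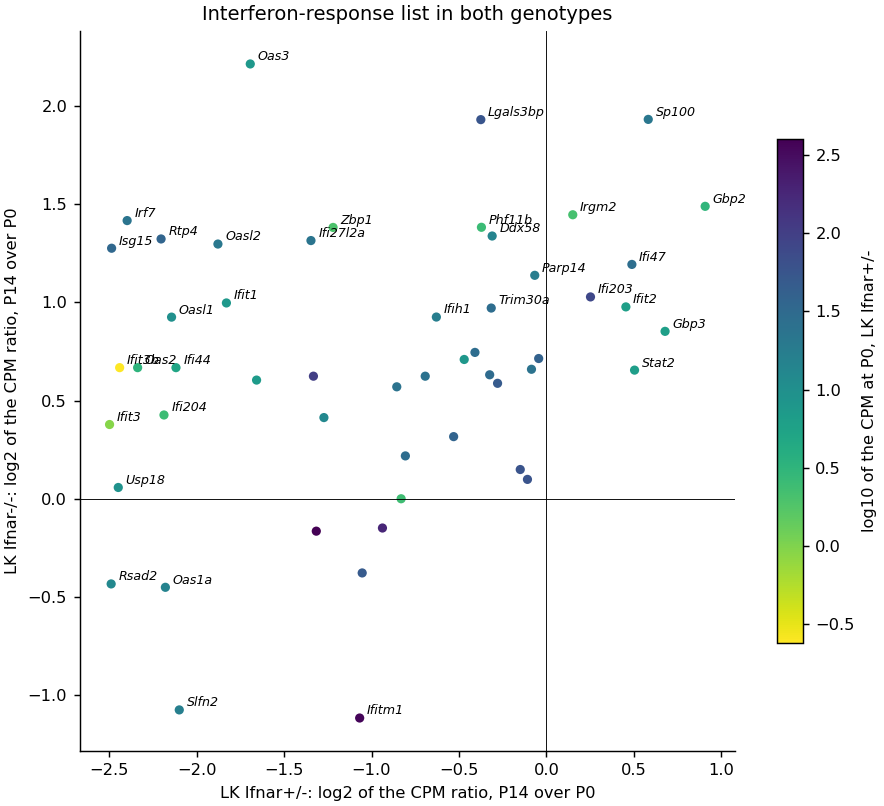
Log2 ratio of each gene of the interferon-response list in LK Ifnar+/- cells (x axis) and LK Ifnar-/- cells (y axis), colored by the log10 CPM at P0 in LK Ifnar+/- cells. Isg15, Irf7 and Rtp4 lie left of 0 and above 0, and Gbp2 has positive values in both pairs.

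Most genes of late neutrophil granules were lower at P14. The secondary granule list had 9 of 14 genes past the minimum, of which 8 were at least 2-fold lower and none at least 2-fold higher, with a median log2 ratio of -3.19. Camp, the cathelicidin peptide (chromosome 9, 109847377 to 109849456), was at 1.09 CPM at P14 and 62.0 CPM at P0. S100a8 and S100a9, the subunits of calprotectin, were at 35.4 and 11.9 CPM at P14 and at 323 and 245 CPM at P0. Anxa1, an anti-inflammatory phospholipid-binding protein, was the exception, at 80.6 and 45.2 CPM. Of 16 primary granule genes, only Fcnb was at least 2-fold apart, at 1.91 and 9.34 CPM. The proteases Elane and Ctsg were at 575 and 854 CPM at P14 and at 542 and 511 CPM at P0, and the median of that list was 0.27. With every cell weighted alike, the median of the primary granule list was just below 0. Within neutrophil progenitor-like cells this median was -0.21, and the summed level of the list was 22569 CPM at P14 and 28088 CPM at P0.

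Much of the secondary granule signal sat in few cells. At P0 the 1% of cells with the most UMI held 95.6% of the Camp UMI, 80.1% of the S100a9 UMI and 61.7% of the S100a8 UMI. The median cell held 0 UMI of the list at both ages, and the highest cell held 265 UMI at P14 and 2418 at P0. The cystatin-like genes Stfa1, Cstdc4 and Cstdc5, which lie in a family of near-identical copies and whose counts may be split between them, moved with these genes. Stfa1 (chromosome 16, 36277148 to 36285371) was at 4.25 CPM at P14 and 309 CPM at P0, and Cstdc5 at 3.30 and 200.4 CPM. In neutrophil progenitor-like cells Stfa1 was at 27.1 and 2621 CPM.

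Free RNA moved with these genes. In barcodes of at most 100 UMI, which hold mainly RNA from the liquid around cells, Stfa1 was at 2.90 CPM at P14 and 410.6 CPM at P0, and S100a8 at 38.1 and 440.1 CPM. Outside the neutrophil progenitor-like class, Stfa1 was at 12.2 to 14.6 CPM in the other 4 classes at P0. The part of free RNA in the values of these classes was not tested. In LK Ifnar-/- cells Stfa1 was at 0.953 and 287 CPM. In LSK Ifnar+/- cells it was at 2.79 CPM at P14 and 0.197 CPM at P0, the opposite order at a low level.

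Other myeloid genes were mixed. The mast cell proteases Cma1 and Tpsb2 had 6 and 3 UMI at P14 against 5150 and 3240 at P0. The log2 ratio of Tpsb2 was -8.26 with a counting interval from -10.77 to -6.94. At P0 the top 1% of cells held 93.7% and 95.3% of them. Gata2 and Cpa3, early genes of the mast cell and basophil branch, were higher instead, at 96.8 and 86.2 CPM at P14 and at 43.4 and 34.3 CPM at P0. The basophil protease Mcpt8 had a log2 ratio of 1.38, while Prss34, another basophil protease, was at 1.53 and 6.40 CPM. Of the 17 genes of this list that passed, 6 were higher and 4 lower by 2-fold or more. Among 15 monocyte and dendritic genes, Ctss, a lysosomal protease, at 10.1 and 4.64 CPM, and Ly6c2, at 86.5 and 43.3 CPM, were at least 2-fold higher and none was at least 2-fold lower. Csf1r, the receptor for macrophage colony-stimulating factor, was at 9.56 and 9.31 CPM.

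Among lymphoid priming genes, Dntt had a large difference. This enzyme, which adds untemplated bases to antigen receptor joints (ENSMUSG00000025014, chromosome 19, 41029275 to 41059525), had 4539 UMI at P14 and 31 at P0, or 45.2 and 0.102 CPM, a 434-fold difference. After thinning, 8.42% of cells at P14 and 0.187% at P0 held a Dntt UMI. The share was 18.97% in lymphoid-primed-like, 14.1% in HSC/MPP-like and 0.274% in erythroid-like cells at P14, the last being a class in which the gene is not expected. Flt3, a receptor of lymphoid and dendritic progenitors, was at 52.5 and 27.6 CPM. Cd52, a surface glycoprotein of lymphocytes, had a log2 ratio of 0.83, and Mef2c, a transcription factor, was at 236 and 175 CPM. Il7r, the receptor for interleukin 7, was at 2.995 and 3.33 CPM. Within lymphoid-primed-like cells, Flt3 was seen in 47.5% of thinned cells at P14 and 56.1% at P0, and Il7r in 4.08% and 8.87%. Of 20 lymphoid genes 2 were at least 2-fold higher (Dntt, and Ly6d at a log2 ratio of 2.62) and 1 at least 2-fold lower (Irf4), beside 5.6% and 3.7% of all genes. Ly6d had 72 UMI at P14 and 35 at P0, and only 7 and 4 thinned cells held a UMI of it. The list median was 0.50 in the library and 0.51 in HSC/MPP-like cells, but -0.35 within lymphoid-primed-like cells.

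Genes of committed B cell precursors had a lower median in the library. Of 15 B lineage genes that passed, 8 were at least 2-fold lower and 3 at least 2-fold higher, with a median log2 ratio of -1.19. Vpreb3 and Igll1, parts of the pre-B cell receptor, were at 0.418 and 0.299 CPM at P14 and at 2.99 and 2.01 CPM at P0. At P0 the top 1% of cells held 99.1% of the Vpreb3 UMI, 95.8% of the Cd79a UMI and 80.1% of the Vpreb1 UMI. Within classes the list median was 0.85 in lymphoid-primed-like, 0.42 in neutrophil progenitor-like and 0.17 in monocyte progenitor-like cells, and -0.61 and -0.30 in HSC/MPP-like and erythroid-like cells. No minimum applied within classes, so genes at 0 UMI at both ages take a value set by the UMI of the class. This value was -0.61 in HSC/MPP-like, 1.16 in neutrophil progenitor-like and 2.04 in monocyte progenitor-like cells. The class medians of this list are therefore not read as a direction. A cluster of 23 B-lineage-like cells was found at P0 and held no P14 cell. With doublets removed before clustering, no B-lineage-like cluster was found at either age. The count is for that cluster alone and sets no limit on B lineage cells at P14. Ebf1, a transcription factor of early B cells, was seen in 1.58% of thinned cells at P14 and 1.49% at P0. Ighm, the heavy chain gene, was at 44.5 and 20.6 CPM and Bank1, a B cell adaptor, at 3.46 and 1.70 CPM.

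Most erythroid genes were under 2-fold apart, at a median log2 ratio of -0.45. Of 23 genes that passed, 3 were at least 2-fold lower and 2 at least 2-fold higher, beside 3.7% and 5.6% of all genes. Sptb (spectrin beta, 3.84 and 29.4 CPM), Add2 and Ank1 of the membrane skeleton were at least 2-fold lower. Car1, carbonic anhydrase 1, at 480.0 and 150 CPM, and Tfrc, the transferrin receptor, at 155 and 72.9 CPM, were at least 2-fold higher. The transcription factors Klf1 and Gata1 were at 59.0 and 48.1 CPM at P14 and at 95.4 and 63.2 CPM at P0. In the heme and iron list, Cpox, an enzyme of heme synthesis, was at 90.4 and 303 CPM. Cpox and Alas2, the erythroid enzyme of its first step, were the 2 of 16 genes at least 2-fold lower, none was at least 2-fold higher, and the median was -0.58. The alpha globins Hba-a1 and Hba-a2, whose copies are near-identical, were at 7.62 and 3.87 CPM at P14 and at 26.9 and 10.5 CPM at P0.

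Within erythroid-like cells the erythroid list had a median log2 ratio of 0.0025, and Epor, the erythropoietin receptor, was at 77.4 CPM at P14 and 77.3 CPM at P0. Some genes that were lower in the library were less far apart there, with log2 ratios of -1.07 for Add2, -1.55 for Cpox and -1.64 for Hba-a1. Some genes were farther apart. These values rest on which clusters took the name, since cluster 14, with 7 cells at P14 and 456 at P0, scored 0.580 for megakaryocyte and 0.518 for erythroid and was left out. Car1 was at 1317 CPM at P14 and 230 CPM at P0, and 76.4% and 42.5% of thinned cells held a Car1 UMI, against 2.504% to 6.48% in the other 4 classes. Angpt1, the angiopoietin 1 ligand of early progenitors, was at 65.4 and 4.66 CPM, and Slamf1, which encodes CD150, at 22.4 and 4.09 CPM. The CD150 tag had the same order, with a median of 325 counts a cell at P14 and 33 at P0 in this class and shares of all tags of 6.39% and 1.70%. Cpne2, a calcium-dependent lipid-binding protein, was at 42.3 and 1.30 CPM. Lower at P14 were Podxl, a sialomucin of the cell surface (1.63 and 46.1 CPM), the lactate exporter Slc16a3 (3.57 and 66.1 CPM) and Tcrg-C1, a T cell receptor gamma segment (6.01 and 133 CPM).

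Ndufa4l2 had the lowest ratio among genes at 20 CPM or more in the higher library, sex genes and Gm or Rik models left out. It encodes a mitochondrial protein induced by low oxygen (ENSMUSG00000040280, chromosome 10, 127509274 to 127517154). It had 6 UMI at P14 and 21409 at P0, or 0.0597 and 70.8 CPM, and in LK Ifnar-/- cells it was at 0.0467 and 122 CPM. At P0 it was at 145 CPM in erythroid-like cells and at 2.19 to 2.65 CPM in the other 4 classes, and 46.6% of thinned erythroid-like cells held a UMI against 1.20% to 1.88% of the others. In P0 free RNA it was at 72.1 CPM. Other genes of the hypoxia list were less far apart. Egln3, an oxygen-sensing hydroxylase, was at 12.1 and 34.0 CPM, Ddit4, an inhibitor of mTOR signalling, at 4.68 and 13.8 CPM, and Vegfa at 17.0 and 15.7 CPM. Of 16 hypoxia genes 4 were at least 2-fold lower, with a median of -0.47. Of 19 glycolysis genes only Slc16a3 was at least 2-fold lower, and 16 had a ratio below 0, among them Ldha at 561 and 878 CPM. None of 29 nuclear genes of oxidative phosphorylation was 2-fold apart, and their median was -0.16.

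Metallothioneins, small proteins that bind zinc and copper, stood out by level: the 9 genes of the metallothionein and zinc list summed to 315 CPM at P14 and 2231 CPM at P0, the lowest ratio of sums among the lists. Mt1 and Mt2 are neighbours on chromosome 8 (94178883 to 94180327 and 94172618 to 94173567). Mt1 was at 214 CPM at P14 and 1268 CPM at P0, and Mt2 at 48.3 and 902 CPM. Slc30a10, an exporter of metal ions, was at 0.557 and 9.24 CPM. The other 5 genes of the list that passed had log2 ratios from -0.05 to 0.47, so the list median of -0.03 does not show the 3 lower genes. In erythroid-like cells Mt2 was at 133 and 1833 CPM, and 29.4% and 99.3% of thinned cells held a UMI. In the other 4 classes at P0 it was at 34.9 to 48.8 CPM, while free RNA held 818 CPM of Mt2 at P0 and 55.2 CPM at P14. The part of free RNA outside the erythroid-like class was not tested. Within LSK Ifnar+/- cells Mt2 was at 0.566 and 51.9 CPM.

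Stem cell genes had a median log2 ratio of 0.50 beside 0.13 for all genes. Of 20 genes, those with a 2-fold or larger difference were 3 higher genes and 1 lower gene. The higher genes were Angpt1 (111 and 39.4 CPM), Slamf1 (11.4 and 5.60 CPM) and Gcnt2, a glycosyltransferase. The lower gene was Fgd5, a marker of long-term stem cells, at 2.44 and 5.63 CPM. The transcription factors Meis1, Hoxa9 and Hlf had log2 ratios from 0.91 to 0.97. Cd34 was at 198 and 113 CPM. Over the list, the median was -0.68 within HSC/MPP-like and 0.59 within erythroid-like cells. The order turned within HSC/MPP-like cells for Procr, which encodes CD201, at 31.8 and 68.6 CPM, and Ly6a, which encodes Sca1, was at 56.4 and 144 CPM there. Procr and Ly6a are among the marker genes that gave clusters the HSC/MPP-like name, as are Hlf, Meis1, Hoxa9 and Fgd5. The values of these genes and of the list within that class are therefore not independent of the naming. Ly6a, also an interferon-induced gene, was lower at P14 in every class, with log2 ratios from -3.21 to -1.03, but at 8.90 and 11.2 CPM in the whole library.

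Of 16 megakaryocyte genes that passed, 3 were at least 2-fold higher, beside 5.6% of all genes, and none was as far below. The list median was 0.50 in the library. It was 1.66 within erythroid-like cells and -0.12, -0.17, -1.54 and -0.05 within HSC/MPP-like, lymphoid-primed-like, monocyte progenitor-like and neutrophil progenitor-like cells. Pf4, platelet factor 4, was at 174 and 35.6 CPM, and the platelet glycoproteins Gp5 and Gp1bb at 14.8 and 4.70 CPM at P14 and at 5.86 and 1.88 CPM at P0. In erythroid-like cells Gp5 was at 29.1 and 5.12 CPM. The top 1% of cells held 74.5% of the Pf4 UMI at P14 and 88.8% at P0, and 9.08% and 4.24% of thinned cells held a UMI. Itga2b, which encodes CD41, was at 21.4 and 19.5 CPM.

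Several immediate early genes, which cells switch on within minutes of a stimulus, were higher at P14. Of 21 that passed, 6 were at least 2-fold higher and none was 2-fold lower, with a median of 0.60. The list median was 0.12 in the LK Ifnar-/- pair and -0.01 in the LSK Ifnar+/- pair, beside 0.14 and 0.07 for all genes there. Fosb was at 20.3 and 0.800 CPM, Fos at 32.6 and 6.57 CPM, Jun at 115 and 27.0 CPM and Zfp36, which marks cytokine RNA for decay, at 19.95 and 5.29 CPM. Junb, Ier2 and Nr4a1 were under 2-fold apart. Fosb was higher in all 5 classes, with log2 ratios from 3.45 to 5.85, and 12.2% and 0.832% of thinned cells held a UMI. Fos was at 23.2 and 1.05 CPM in erythroid-like cells and at 55.6 and 31.3 CPM in HSC/MPP-like cells. Over the list, the median log2 ratio was 0.83 in erythroid-like cells and -0.45 in HSC/MPP-like cells. The heat shock list, 10 of 12 genes, had 2 genes at least 2-fold lower and none at least 2-fold higher.

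Chemokines and antigen presentation genes had both directions. Cxcl2 had 113 UMI at P14 and 2 at P0, a log2 ratio of 7.09 with a counting interval from 5.52 to 10.47. Ccl5 had a log2 ratio of 3.14, but had 0 UMI at P14 and 92 at P0 in monocyte progenitor-like cells. At P14 the top 1% of cells held 92.9% of the Cxcl2 and 97.1% of the Ccl5 UMI, and 14 and 18 thinned cells held a UMI. Ccl4 was at 4.32 and 24.1 CPM. Of 20 genes of MHC class I presentation, 4 were at least 2-fold higher and none was 2-fold lower, with a median of 0.55. H2-Q6 and H2-Q7, close copies whose reads may be split, had log2 ratios of 4.03 and 3.26, and Nlrc5, the activator of class I genes, of 1.34. H2-K1 was at 313 and 186 CPM and H2-D1 at 312 and 181 CPM, under 2-fold. In MHC class II, H2-DMa and H2-Ob were at least 2-fold higher and H2-Eb1 at least 2-fold lower. The log2 ratio of H2-Eb1 was -1.59 in all cells, 1.18 in male cells only and -4.20 in female cells only, and the share of male cells differed between the libraries as given above.

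In the library as a whole, proliferation lists were close to the median of all genes. None of 20 G1/S or 20 G2/M genes was 2-fold apart, with medians of -0.08 and 0.06. Within some classes they were farther from 0. The G1/S median was 1.09 in HSC/MPP-like cells, with sums of 2503 CPM at P14 and 1253 CPM at P0, and the G2/M median was 2.05 in lymphoid-primed-like cells, with sums of 3072 and 799 CPM. At least 3 G2/M UMI were found in 73.2% of thinned cells at P14 (exact 95% interval 71.4 to 75.01) and 82.4% at P0 (81.4 to 83.3). The order differed between classes, with 79.3% and 97.4% in erythroid-like cells but 80.6% and 51.7% in lymphoid-primed-like cells. The lymphoid-primed-like classes were unlike each other in other ways. At P14, 266 of the 638 cells were cluster 6, which was led by histone genes and took its name by a marker score of 0.620 against 0.571 for HSC/MPP. The granule protease Ctsg was at 706 CPM in this class at P14 and 54.2 CPM at P0. Of 21 polycomb genes, Cbx8 (7.26 and 2.98 CPM) was at least 2-fold higher, a share below the 5.6% of all genes, and none was as far below, with a list median of 0.29 beside 0.13 for all genes. Ezh1, the methyltransferase of resting cells, was at 14.4 and 9.34 CPM and its relative Ezh2 at 191 and 179 CPM. Among 23 cholesterol synthesis genes, Idi1 and Fdps were at least 2-fold lower and the median was -0.43. Scd2, a fatty acid desaturase outside that list, was at 76.2 and 222 CPM.

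Genes of other cell types that a sort could carry over were followed by list. Of the hepatocyte list, 10 of 12 genes passed and 7 were at least 2-fold lower, with a median of -4.63, or -3.27 with the 5 genes at 0 UMI in P14 set at the floor of 3 UMI. Alb had 0 UMI at P14 and 541 at P0, at least 59.9-fold lower, and was at 1.52 CPM in P0 free RNA and 1.79 CPM in P0 cells. The summed level of the list was 40.9 CPM at P14 and 36.2 CPM at P0, since Trf, which encodes transferrin, made up most of it at 35.8 and 22.7 CPM. Trf and Afp, the latter at 3.44 and 1.96 CPM, were the 2 genes that passed with a ratio above 0. Of 9 macrophage genes 4 were at least 2-fold higher, among them C1qa at 0.557 and 0.136 CPM and Cd163, the hemoglobin scavenger receptor, at 1.48 and 0.0463 CPM. Marco, at 0.109 and 0.258 CPM, was the 1 gene at least 2-fold lower. The summed macrophage level was 20.7 and 13.8 CPM, with Slc40a1, the iron exporter, at 13.1 and 9.82 CPM, and 89.3% and 92.9% of thinned cells held none of these genes. The endothelial sum was 154 and 166 CPM, of which Egfl7, a secreted endothelial protein, made up 137 and 151 CPM. Of 9 endothelial genes that passed, 3 were at least 2-fold lower and none was at least 2-fold higher. The median was -0.14, and 4 of the 9 had a ratio above 0. Lyve1, among the lower genes, had 0 UMI in P14 and 63 in P0, at least 6.98-fold lower. The part of other cell types in the differences above was not tested.

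**Figure D3:**
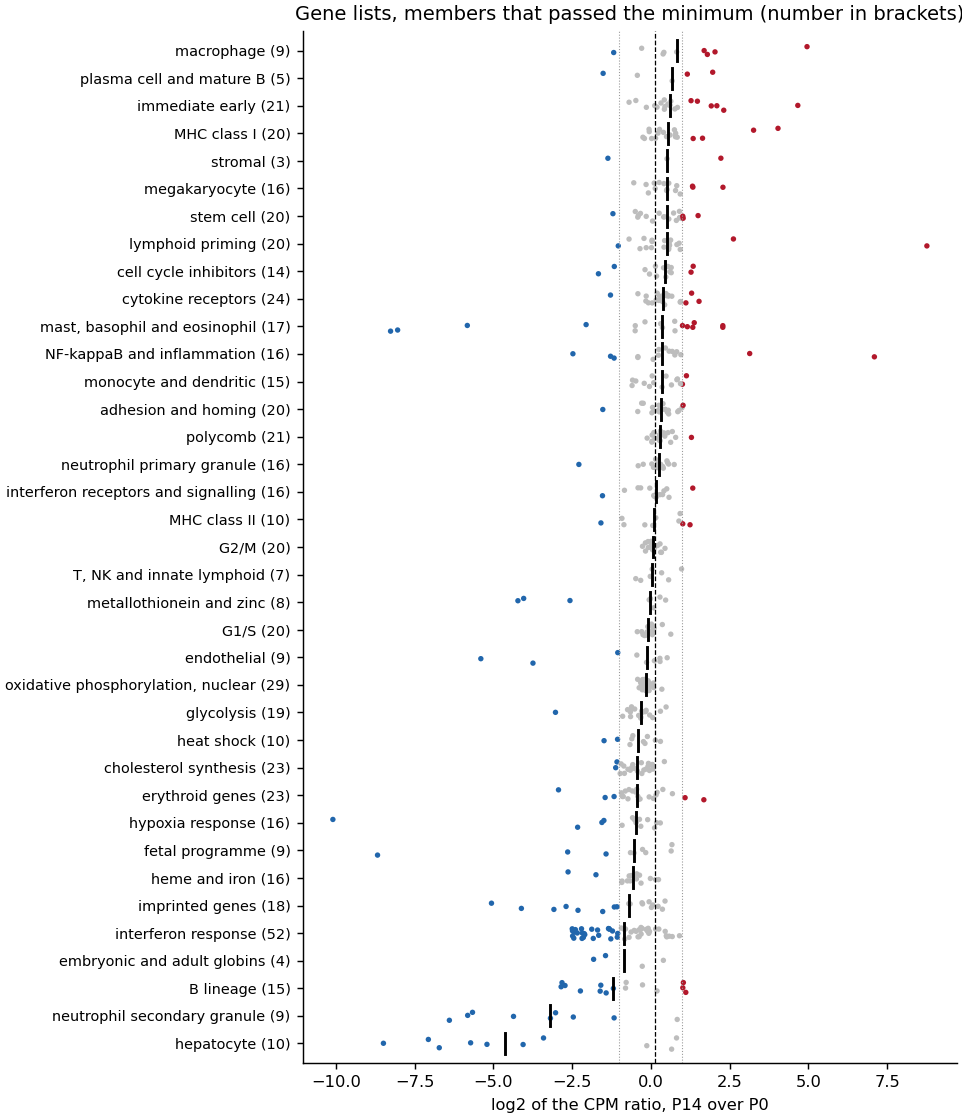
Log2 ratio, P14 over P0, of the members of each gene list that passed the minimum (their number in brackets), with 1 point per gene and the list's median marked. The hepatocyte, secondary granule, B lineage, globin and interferon-response lists have the lowest medians, at -4.63, -3.19, -1.19, -0.86 and -0.84. The medians of the other lists shown lie between -0.68 (imprinted genes) and 0.82 (macrophage), beside 0.13 for all genes.

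Cells of both libraries were clustered together on 1730 genes, without the interferon, fetal, immediate early, cell cycle and sex lists, and clusters were called like a class by marker genes. The classes with at least 100 cells at each age were HSC/MPP-like (432 cells at P14 and 332 at P0), lymphoid-primed-like (638 and 586), erythroid-like (729 and 1761), monocyte progenitor-like (118 and 599) and neutrophil progenitor-like (299 and 706). Most clusters held cells of 1 library almost alone, so a class joins different clusters at the 2 ages. HSC/MPP-like cells were cluster 0 at P14 and cluster 15 at P0, neutrophil progenitor-like cells cluster 1 at P14 and clusters 12 and 17 at P0, and erythroid-like cells clusters 2 and 7 at P14 and clusters 13, 16, 19 and 20 at P0. Lymphoid-primed-like cells were mainly clusters 5 and 6 at P14 and cluster 4 at P0, and monocyte progenitor-like cells cluster 11 at P14 and clusters 11 and 18 at P0. Clusters of a class may differ in maturity as well as age, which was not tested, and genes that drew the clusters are among those below. Values within classes are therefore a description. Medians of lists within classes took the members that passed in the library, with no minimum within the class. A member at 0 UMI at both ages in a class takes a ratio set by the depth of the class alone, which can move such a median. Marker genes that named a class are also members of some lists, so those lists are not independent of the naming. Clusters that took no name held 79 cells at P14 (3.28%) and 886 at P0 (15.04%). Among them was cluster 9, with 30 cells at P14 and 721 at P0, whose leading genes included Hlf, Hmga2 and Hbb-bt. At resolution 0.5 the HSC/MPP-like class held 25 cells at P14 and 1244 at P0, so the HSC/MPP-like values rest on which clusters took that name. The shares of the classes changed with the clustering and are given with its settings below.

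Of 6788 genes with at least 10 CPM in the higher library of each class, 16 were at least 2-fold higher in all 5 classes (0.236%) and 10 at least 2-fold lower (0.147%). Among the lower genes were Lin28b, Isg15, Rtp4, Mt2 and Stfa1, described above. For Stfa1 outside the neutrophil progenitor-like class and Mt2 outside the erythroid-like class, the part of free RNA was not tested. Hmga1, a chromatin protein close to Hmga2 in sequence, was at 60.6 and 137 CPM in HSC/MPP-like cells and at 37.2 and 112 CPM in erythroid-like cells. Scd2 had log2 ratios from -1.94 to -1.11 and Bex4, a small adaptor protein, from -3.18 to -1.48. Hbb-bt, an adult beta globin gene, had a ratio of -0.27 in the whole library but -1.03 or lower in every class. It was highest at P0 in HSC/MPP-like cells.

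Among the higher genes, Cpt1a, which carries fatty acids into mitochondria (chromosome 19, 3322326 to 3385735), was at 43.1 CPM at P14 and 9.23 CPM at P0. It was at 43.6 and 5.76 CPM in erythroid-like cells, 58.0 and 18.1 CPM in HSC/MPP-like cells and 32.7 and 14.1 CPM in monocyte progenitor-like cells. Cpt1a was at 39.6 and 7.79 CPM in LK Ifnar-/- cells and at 53.3 and 11.1 CPM in LSK Ifnar+/- cells. Tfrc was at 40.0 and 15.2 CPM in HSC/MPP-like cells and at 288 and 132 CPM in erythroid-like cells. Galnt6, which starts O-linked sugar chains, had log2 ratios from 1.804 to 2.84, and Rnaset2b, a lysosomal ribonuclease, from 1.42 to 1.87. Of the 16, 6 were replication-dependent histone genes, such as Hist1h2ab at 146 and 44.6 CPM. Their RNA mostly lacks the poly(A) tail that the assay captures, and their copies are near-identical. Hist1h2ap, another copy, was lower at 867 and 2084 CPM. The genes Gm2000, Gm11808 and Nutf2-ps1 are predicted or pseudogene models that can share reads with other genes.

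**Figure D4:**
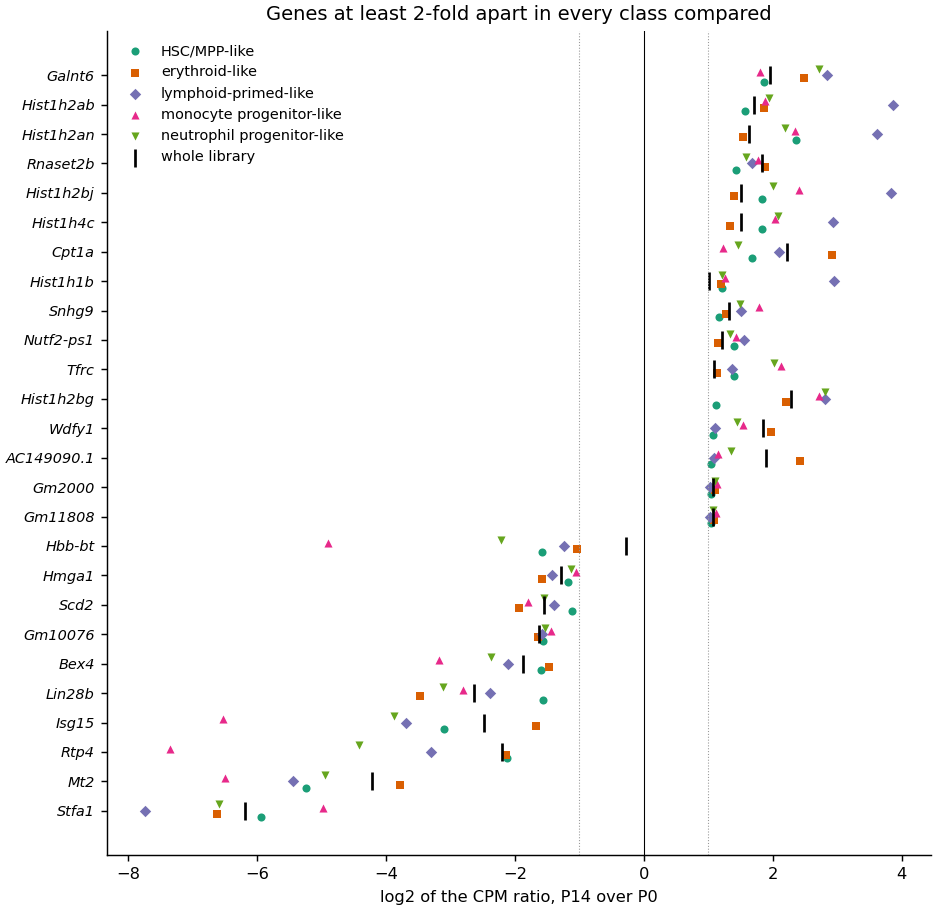
Log2 ratio, P14 over P0, of the 26 genes at least 2-fold apart in every class, with 1 colored point per class and a vertical tick for the whole library. The points farthest left are Stfa1 in lymphoid-primed-like cells (-7.74) and Rtp4 in monocyte progenitor-like cells (-7.35), and the tick of Hbb-bt at -0.27 lies right of its 5 class points. At P14 Stfa1 and Rtp4 were at 0.0398 and 0.163 CPM in these classes, the level of 1 UMI, so the size of these ratios is imprecise.

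Antibody tags read 9 named surface proteins and 1 tag, SA_PE, whose target the labels do not give. Tag counts per cell were higher overall at P14, with a median of 7447 against 4757 at P0, so shares of all tags are given beside most medians. The CD34 tag had a median of 156 at P14 and 44 at P0 and shares of 3.17% and 2.12%, in the order of its RNA. The CD117 tag had medians of 953 and 722 but shares of 13.4% and 16.4%. CD127, the interleukin 7 receptor, had medians of 3 and 11 and shares of 0.0880% and 0.376%, while its RNA Il7r was at 2.995 and 3.33 CPM. CD127 was lower at P14 in all 5 classes, including erythroid-like cells at 3 and 17, where the protein is not expected. In barcodes of at most 100 UMI its share of the tags was 0.757% and 1.39%, and the part of free tags in this difference was not tested. CD201 had medians of 3 and 7 and shares of 0.175% and 0.280% in all cells. In HSC/MPP-like cells CD201 had medians of 16 and 42 and shares of 0.681% and 2.26%. Its median was lower at P14 in all 5 classes, also in erythroid-like cells at 2 and 9, where Procr RNA was at 0.139 and 0.325 CPM.

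Some tags differed by class. CD48, a marker that most stem cells lack, had a median of 4372 at P14 and 720.5 at P0 in HSC/MPP-like cells, but its share of the tags there was 59.7% and 50.2%. Cd48 RNA was at 145 and 66.2 CPM in these cells. In all cells its share was 70.3% and 71.3%. CD16_32, the Fc gamma receptors of granulocyte and monocyte progenitors, had medians of 1053 and 141 and shares of 11.9% and 4.04% in monocyte progenitor-like cells. Of the genes this tag reads, Fcgr3 was at 79.8 and 50.7 CPM and Fcgr2b at 25.2 and 28.6 CPM there. CD34 had medians of 687.5 and 171 and shares of 8.44% and 3.98% in the same class. The cells of this class were unlike at the 2 ages. Of the 599 at P0, 433 were cluster 18, which held 2 cells at P14. In this class Ly6c2 was seen in 83.1% of thinned cells at P14 and 22.4% at P0, and Elane in 91.5% and 39.9%. The part of this in the tag differences was not tested. CD150 was lower at P14 in HSC/MPP-like cells, with medians of 14 and 36.5 and shares of 1.03% and 3.48%, and higher in erythroid-like cells as given above. SA_PE had medians of 42 and 41 but means of 447 and 128, and in HSC/MPP-like cells medians of 1076.5 and 390 with shares of 20.3% and 18.5%. By median, 4 of the 10 tags were at least 1.5-fold apart, by share 3 and by mean 6. The 4 by median were CD34, CD48, CD127 and CD201, the last pair with medians between 3 and 11 counts.

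**Figure D5:**
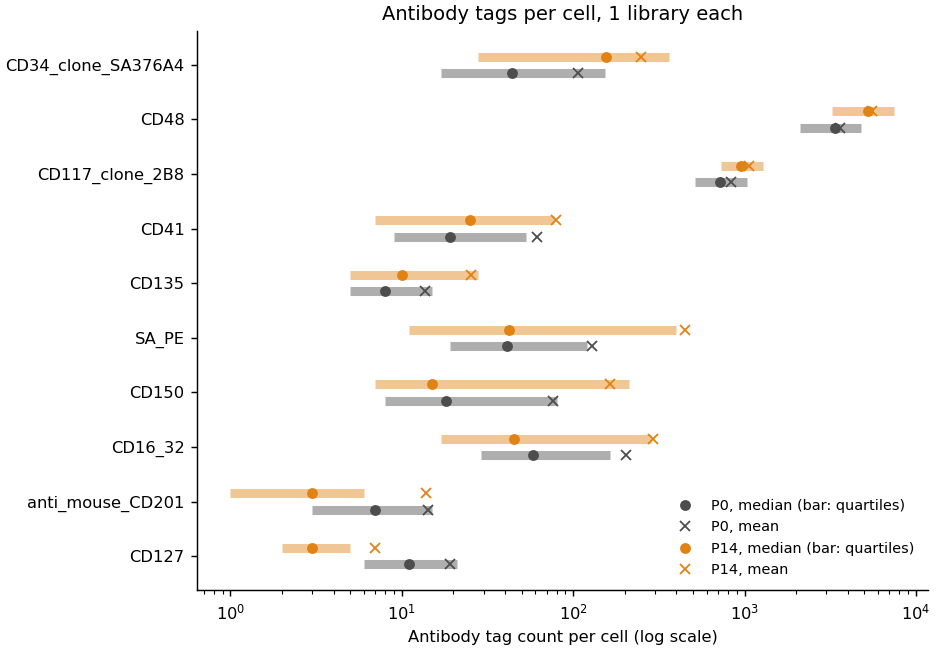
Count per cell of each antibody tag on a log scale at P14 and P0, with the median (circle), quartiles (bar) and mean (cross). CD34 has medians of 156 and 44, and SA_PE has medians of 42 and 41 with means of 447 and 128.

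The differences were set beside those of other pairs of libraries at the same ages. Of 13695 genes in LK Ifnar-/- cells, 833 had a ratio of 2 or more in favour of P14 (6.08%) and 453 in favour of P0 (3.31%). Of 14015 genes in LSK Ifnar+/- cells, these numbers were 515 (3.67%) and 586 (4.18%). Over the 13611 genes counted in both LK pairs, 527 genes were higher in both, which is 70.5% of the 748 of the Ifnar+/- pair and 66.7% of the 790 of the Ifnar-/- pair. Likewise 312 were lower in both, 71.6% of 436 and 71.7% of 435. Over the 13506 genes counted in both Ifnar+/- pairs, 277 were higher in both, 37.2% of 745 in LK and 71.4% of 388 in LSK cells, and 266 were lower in both, 67.3% of 395 and 51.7% of 515. Of the genes lower here, 5 were at least 2-fold higher in the LK Ifnar-/- pair and 7 in the LSK pair, and 2 of the genes higher here were at least 2-fold lower in the LSK pair. Cpne2 was higher at P14 in each pair, at 27.9 and 2.72 CPM in LK Ifnar-/- cells and at 19.99 and 3.43 CPM in LSK cells. Car1 was higher in the LK pairs, at 556 and 167 CPM in Ifnar-/- cells, and not in LSK cells, at 7.84 and 8.76 CPM.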

How the data were processed

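The deposited files hold counts: raw UMI per gene or antibody tag and barcode, without normalization or cell filter, made with 10x Genomics Cell Ranger. Per the file headers the version was 4, while the submitters' processing notes name Cell Ranger 6.0.1 and mm10. Per the labels the libraries were Chromium 3' version 3.1.

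Cells were called by the 7500 UMI and 10% mitochondrial limits, and doublets were kept. Scrublet (scanpy 1.11.5) marked 0.954% of cells at P14 and 2.48% at P0, and their removal was an alternative. UMI were summed per library, scaled to CPM and compared as log2 ratios after adding 0.5 counts, for genes with at least 50 UMI in the higher library. CPM have exact Poisson and shares exact Clopper-Pearson 95% intervals, for counting error only. A gene at 0 UMI was given a floor of 3 counts. Code was tested on simulated data.

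Clustering used 30 components, 15 neighbours and Leiden resolution 1 (igraph 0.11.9), and a class name needed a marker score of at least 0.5. For shares of cells with a UMI, each cell was thinned to 7500 UMI. Alternatives covered cell limits, doublets, scaling (TMM factors of edgeR 4.0.16, median-of-ratios factors, or every cell weighted alike), pseudocount, gene filter, free RNA, class weights, sex and clustering.

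The comparison and the 38 gene lists were chosen with earlier results of these data known. Named genes followed a rule: in the library, the 10 highest and 10 lowest ratios at 20 CPM or more, the 5 largest differences in CPM each way and the 2 highest and 2 lowest of each list; within classes, 8 genes each way; and Ifnar1, Ifnar2, Kit, Ly6a and genes of the tags. Other genes named, among them Irf7, Usp18, Ifitm1, Ifitm3, Jun, Gata2 and Cpa3, were chosen after their values were seen. Gene coordinates come from RefSeq (GRCm38.p6, the build mm10), matched by symbol for 26335 of 32285 genes. No sequence was used here. Some genes of the lists are not reported here.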

Additional observations from a re-analysis of the deposited data

Results flagged for a closer look

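Genes that were at least 2-fold apart between P14 and P0 in LK Ifnar+/- cells, and at least 2-fold apart the other way in another pair of libraries, are given here. The difference between pairs was not tested, because each age had 1 library in every pair.

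Against LK Ifnar-/- cells there were 5 such genes, all of the interferon-response list. Log2 ratios here and in Ifnar-/- cells were -2.49 and 1.28 for Isg15, -2.40 and 1.42 for Irf7, -2.20 and 1.32 for Rtp4, -1.88 and 1.30 for Oasl2, and -1.35 and 1.31 for Ifi27l2a. The levels in Ifnar-/- cells were low, from 0.180 CPM (Rtp4 at P0) to 1.49 CPM (Oasl2 at P14), while in Ifnar+/- cells they lay between 4.39 and 36.4 CPM.

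Against LSK Ifnar+/- cells, granule and mast cell genes were lower at P14 in LK cells and higher in LSK cells. The log2 ratios in LK and LSK cells were -3.19 and 5.32 for S100a8, -4.36 and 5.08 for S100a9, -6.18 and 3.80 for Stfa1, -5.92 and 3.75 for Cstdc5, and -2.06 and 5.59 for Prss34. Mcpt4, a mast cell protease, had 1 UMI at P14 and 484 at P0 in LK cells, a log2 ratio of -6.75 with a counting interval from -12.64 to -4.84, against 3.76 in LSK cells. The levels in LSK cells at P0 were all at or below 0.220 CPM. Prelid3a, a lipid carrier of mitochondria, had log2 ratios of -2.21 and 1.38. Pde10a, a phosphodiesterase, and Bmx, a tyrosine kinase, were higher in LK cells at P14, with 1.23 and 1.29, and lower in LSK cells, with -1.61 and -1.60.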

How the results depend on the processing

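No paired analysis was possible because each group had 1 library, and for the same reason no library could be left out. The 784 higher genes became 514 with TMM factors (668 lower) and 563 with median-of-ratios factors (628 lower), beside 518 lower as reported. These scalings moved the median of all genes from 0.134 to -0.037 and -0.0005. With 5 CPM added there were 68 higher and 79 lower genes, with a minimum of 10 UMI 1401 and 925, with no minimum 3192 and 1499, and with 200 UMI 459 and 313. Genes higher in every class numbered 6 rather than 16 with 5 CPM added, and 10 after clustering without genes at least 2-fold apart (an alternative chosen after seeing the data), 8 of them shared. The last count was over 6 classes, with megakaryocyte-like cells added, rather than 5.

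Shares of classes followed the clustering. The HSC/MPP-like share was 17.9% at P14 and 5.64% at P0, a difference of 12.3 points, which became -20.1 at resolution 0.5, 5.98 at resolution 2, 7.80 without doublets and 0.147 with each library clustered alone. The lymphoid-primed-like difference of 16.5 points became -0.00769, 2.30, 7.80 and 2.48 in these settings and -0.679 without genes at least 2-fold apart. The neutrophil progenitor-like difference of 0.417 became 3.85 at resolution 0.5, 3.86 at resolution 2 and 7.4004 without doublets. The monocyte progenitor-like difference of -5.27 became -3.89, -6.81, -2.57 and -9.18, and 0.535 without genes at least 2-fold apart. The erythroid-like difference of 0.343 became -18.9 at resolution 0.5, -6.43 at resolution 2, -12.6 alone and -10.002 without genes at least 2-fold apart. The cause was not tested.

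The difference in cells with G2/M transcripts, -9.13 points, was -5.29 without thinning. Of 108 named genes at least 2-fold apart, 97 to 107 were so under 11 alternatives and 54 with 5 CPM added. In male cells only, H2-Eb1 and Lcn2 reversed to 1.18 and 0.078. In any 1 alternative, the median changed sign in at most 4 of 37 lists. Over all alternatives the lists concerned were MHC class II, G2/M, interferon receptors and signalling, and primary granules. The list of mast cells, basophils and eosinophils, the endothelial list and the list of T, NK and innate lymphoid cells changed sign as well. Among genes under 5 CPM 20.8% were 2-fold apart, and the part of depth in this share was not tested.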
